A study of Mus musculus with 8 samples.

Results

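This account describes CpG methylation at 4 genes of the pluripotency network, Pou5f1, Sox2, Klf4 and Esrrb, in mouse embryonic stem cells, read in 8 libraries made by reduced representation bisulfite sequencing (RRBS). RRBS sequences restriction fragments rich in CpG after bisulfite treatment, which leaves methylated cytosines to be read as C and turns others to T. The members were all CpGs in 4 fixed windows of build mm9: Pou5f1 at chr17:35630000-35660000, Sox2 at chr3:34535000-34565000, Klf4 at chr4:55525000-55560000 and Esrrb at chr12:87690000-87875000. They came to 498 CpGs listed in any library, of 1026288 in the whole series. Of these, 342 had at least 10 reads in all 8 libraries, 38 at Pou5f1, 100 at Sox2, 108 at Klf4 and 96 at Esrrb, of 622768 in the whole series. All values below rest on those 342 unless another set is named.

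The cells were of strain 129/SvP and all were plated sparsely in FBS/LIF, that is, serum plus the self-renewal cytokine leukaemia inhibitory factor. They received both supplements (1 mM L-proline and 500 µM vitamin C), vitamin C alone, L-proline alone or no supplement, and each treatment was sampled on day 5 and day 2. The title of the series calls the supplements antagonists, and methylation at these genes was therefore compared with and without each. There was 1 library for each treatment and day, and the labels name neither a clone nor a culture. A difference between 2 libraries therefore has no replicate behind it, and the spread given is that between 4 matched pairs of libraries.

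Pou5f1 (also known as Oct4) and Sox2 encode transcription factors that bind many regulatory elements of embryonic stem cells together, and Pou5f1 is required for the pluripotent state. Klf4, a zinc finger factor, and Esrrb, an orphan nuclear receptor, belong to the circuit of the naive state, the pluripotent state of the early inner cell mass, and both fall in the transition to the primed state of the later epiblast. Promoters with a CpG island, a stretch dense in CpG, are usually unmethylated in stem cells whether or not they are active, whereas CpG-poor regulatory elements can carry variable methylation. Vitamin C is a cofactor of the TET dioxygenases, which oxidise 5-methylcytosine. Bisulfite sequencing reads 5-methylcytosine and 5-hydroxymethylcytosine alike.

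The promoters of the members differ in CpG content, and their sequences are shown for that reason. Most CpGs with near-zero values below lie outside the stretches printed. Each runs from 250 bases before the annotated start to 30 bases after it, 5′ to 3′ on the gene's strand, in RefSeq's build GRCm38.p6, with every CG in capitals. Esrrb has 2 annotated starts that were compared, and both are shown. Pou5f1 also has a second annotated start, at 35645752 on mm9, which is not shown and was not treated as a promoter.
Pou5f1, first start: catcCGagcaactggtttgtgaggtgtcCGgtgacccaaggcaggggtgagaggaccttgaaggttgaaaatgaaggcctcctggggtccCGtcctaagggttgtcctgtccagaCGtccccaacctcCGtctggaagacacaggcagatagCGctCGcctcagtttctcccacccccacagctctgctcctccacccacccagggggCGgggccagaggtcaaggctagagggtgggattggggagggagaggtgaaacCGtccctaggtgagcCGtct
Sox2: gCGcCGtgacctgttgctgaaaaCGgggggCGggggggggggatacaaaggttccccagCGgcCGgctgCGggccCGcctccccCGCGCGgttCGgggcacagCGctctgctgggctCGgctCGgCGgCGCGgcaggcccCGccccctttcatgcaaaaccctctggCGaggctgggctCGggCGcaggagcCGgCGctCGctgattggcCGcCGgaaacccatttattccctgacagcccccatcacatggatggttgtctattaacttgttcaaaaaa
Klf4: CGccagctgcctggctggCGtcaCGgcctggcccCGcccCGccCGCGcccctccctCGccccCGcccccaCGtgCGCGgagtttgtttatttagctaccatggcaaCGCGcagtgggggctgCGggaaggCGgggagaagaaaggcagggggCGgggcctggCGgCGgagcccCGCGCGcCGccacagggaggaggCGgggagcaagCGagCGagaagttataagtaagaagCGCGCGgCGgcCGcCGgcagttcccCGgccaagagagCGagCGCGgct
Esrrb, first start: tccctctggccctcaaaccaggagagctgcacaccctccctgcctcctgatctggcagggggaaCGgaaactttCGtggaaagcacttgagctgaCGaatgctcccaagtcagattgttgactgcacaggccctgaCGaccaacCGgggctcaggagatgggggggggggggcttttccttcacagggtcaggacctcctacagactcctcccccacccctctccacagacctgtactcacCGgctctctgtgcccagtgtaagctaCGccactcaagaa
Esrrb, second start: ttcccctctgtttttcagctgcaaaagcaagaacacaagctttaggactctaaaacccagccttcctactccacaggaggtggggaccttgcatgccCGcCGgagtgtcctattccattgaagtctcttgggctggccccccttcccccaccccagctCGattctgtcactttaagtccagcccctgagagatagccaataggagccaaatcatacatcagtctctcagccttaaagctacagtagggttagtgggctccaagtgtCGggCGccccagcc
The positions are chr17:35505782-35506061 on the plus strand, chr3:34649745-34650024 on the plus strand, chr4:55532446-55532725 on the minus strand, chr12:86360867-86361146 on the plus strand and chr12:86421394-86421673 on the plus strand. Over RefSeq's windows, which reach 50 bases past the start, the Klf4 promoter held 40 CG, and 3.91% of 32851 promoters held at least as many. The Sox2 promoter held 27 (15.5% of promoters had at least as many), Pou5f1 11 (41.4%) and each Esrrb start 7 (52.1%).

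The starts were placed on mm9 by the spacing of CpGs, at 35642977 on chromosome 17 for Pou5f1, 34548917 on chromosome 3 for Sox2, 55545347 on chromosome 4 (minus strand) for Klf4, and 87702067 and 87762594 on chromosome 12 for Esrrb. At the shift chosen, all of the 405, 12, 36 and 53 CpGs listed inside RefSeq promoters of each neighbourhood fell on a CG. The next best shift had no more than 7 on a CG at any of the 4. Distances below are from the most upstream start in the direction of transcription, promoter means 1000 bases before to 500 after it, and gene body runs from there to the annotated end.

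The median coverage of the members ran from 28 reads per CpG with both supplements on day 5 to 58 with both supplements on day 2, and medians in the whole common set from 27 to 56. Over that common set, methylation was -4.14 ± 1.82 percentage points with vitamin C relative to without (mean matched difference ± SD, n = 4 pairs), and 2.05 ± 0.565 with L-proline relative to without. The values of the 4 genes below are to be read against those shifts of whole libraries. The phage lambda contig, a usual check of bisulfite conversion, read 0.195% to 0.513% methylated, so levels in that range cannot be told from incomplete conversion.

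Methylation was low at most CpGs of the 4 windows. In every library 183 of the 342 (53.5%) were under 5%, against 51.6% of the common set. Averaged over the 8 libraries, 275 (80.4%) averaged under 5%, against 68.9% of the common set. At Klf4 the share was 94.4%, at Sox2 90%, at Pou5f1 81.6% and at Esrrb 54.2%. Only Esrrb had CpGs averaging 80% or above, 7 of its 96. Most CpGs at 5% or above lay in a few groups away from the starts, as the plot along the genes shows, and exceptions near both Esrrb starts are given with that gene.

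**Figure D1:**
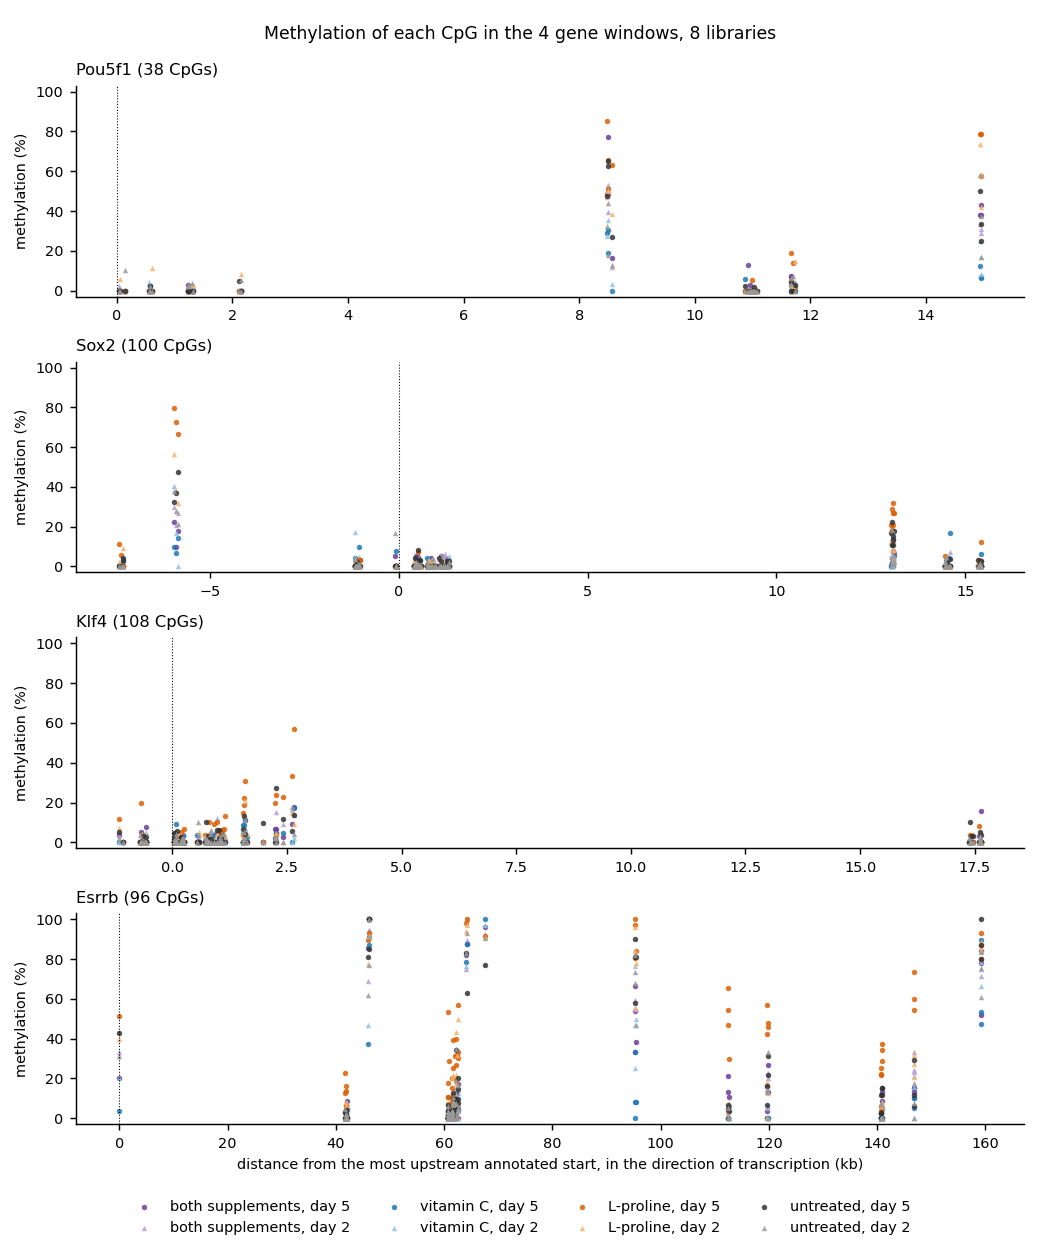
Methylation (%) of each of the 342 CpGs in each of the 8 libraries, against the distance from the most upstream start in kb, one panel per gene. Circles are day 5 and triangles day 2. CpGs at and just after the starts of Pou5f1, Sox2 and Klf4 lie near 0 in all libraries, and the spread is in distal groups and inside Esrrb, where orange circles (L-proline, day 5) are most often on top.

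Averaged over its window, each gene was lowest in a vitamin C library and highest in L-proline on day 5. In each sentence that follows, the first value of a treatment is day 5 and the second day 2. Pou5f1 averaged 9.1% and 6.84% with both supplements, 3.16% and 4.74% with vitamin C, 13.8% and 10.8% with L-proline, and 8.65% and 6.97% without either. Esrrb averaged 13.9% and 14.8% with both supplements, 9.96% and 12.4% with vitamin C, 28.7% and 18.7% with L-proline, and 16.9% and 14.6% without either. Both genes were lowest in vitamin C on day 5. The 4 vitamin C libraries overlapped the 4 without, since a library with both supplements exceeded an untreated one at each gene.

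Sox2 averaged 1.41% and 1.52% with both supplements, 1.12% and 1.39% with vitamin C, 4.55% and 2.41% with L-proline, and 2.77% and 1.82% without either, so that all 4 vitamin C libraries lay below all 4 without it. Klf4 averaged 1.06% and 1.39% with both supplements, 0.939% and 0.418% with vitamin C, 3.61% and 1.52% with L-proline, and 1.8% and 1.07% without either, with overlap. The window means of these genes are low because most of their CpGs are near 0. In the plot of window means, vitamin C alone gave the lowest and L-proline alone the highest points at Pou5f1 and Esrrb.

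**Figure D2:**
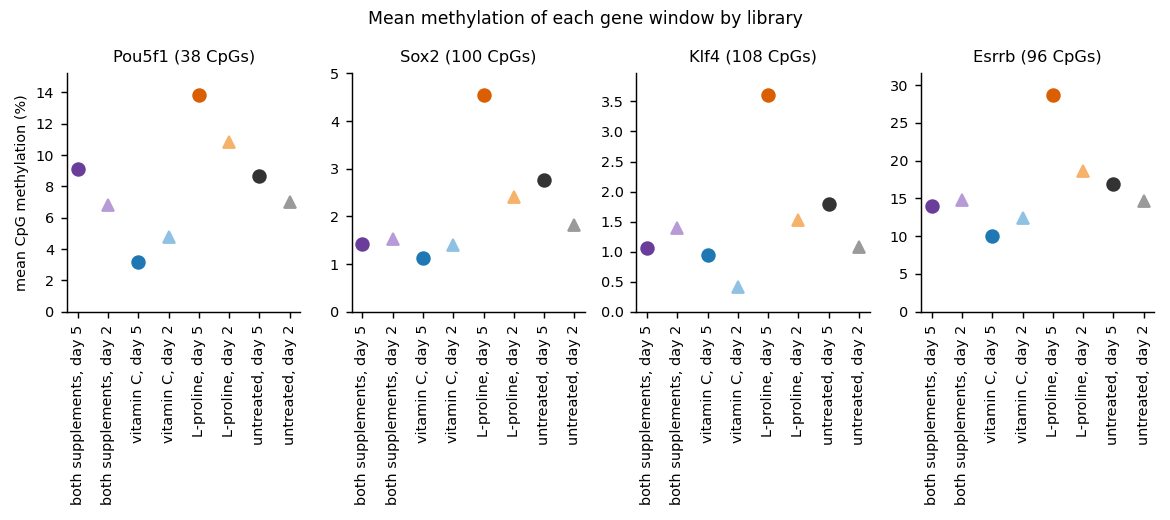
Mean methylation (%) over the CpGs of each gene window in each library, 1 point per library with no replicate, circles for day 5 and triangles for day 2. The scale differs between panels. L-proline on day 5 is the highest point in all 4 panels (13.8%, 4.55%, 3.61% and 28.7%).

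With vitamin C relative to without, the mean matched difference was -4.11 ± 1.39 points at Pou5f1, -1.53 ± 1.18 at Sox2, -1.05 ± 1.05 at Klf4 and -6.93 ± 5.56 at Esrrb (SD, n = 4 pairs), lower in 4 of 4 pairs at each gene. With L-proline relative to without, it was 4.27 ± 1.68, 0.698 ± 0.747, 0.836 ± 0.737 and 5.58 ± 4.24 points in the same order of genes, higher in 4 of 4 pairs at each. For all 8 of these p was 0.13 in the exact two-sided permutation of signs, the smallest that 4 pairs allow, so none could pass 0.05. The 4 genes are not independent of each other, since they were read in the same 8 libraries. Both directions are those of the common set as a whole. Day 5 minus day 2 had no common sign across pairs at any gene, with mean differences of 1.34 ± 2.02 at Pou5f1, 0.675 ± 1.11 at Sox2, 0.752 ± 1.0 at Klf4 and 2.24 ± 5.54 at Esrrb (exact sign-flip permutation p = 0.25, 0.50, 0.25 and 0.75).

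At the Pou5f1 promoter 3 CpGs were covered, at 44 to 144 bases after the start. They averaged 0% and 0.833% with both supplements, 0% and 0% with vitamin C, 0% and 1.96% with L-proline, and 0% and 3.51% without either. A value of 0 there rests on 53 to 98 reads, which allows up to 3.06% to 5.66% (3 reads of the total, counting error only). Its 12 gene-body CpGs, 551 to 2156 bases after the start, ranged over libraries from 0% to 2.18%. Neither region separated libraries with vitamin C from those without, with mean matched differences of -1.16 ± 1.65 and -0.616 ± 0.885 points. No CpG before the start was covered in all 8 libraries, so the upstream enhancers of Pou5f1 were not analysed here.

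The Sox2 promoter (16 CpGs) ranged from 0.0977% to 1.5% and its gene body (40 CpGs) from 0.222% to 0.684%. Sox2 is a gene of a single exon, and its only CpG-dense run held 52 of these CpGs, from 34549324 to 34550248. A dense run is here at least 15 CpGs listed in any library with neighbours no more than 100 bases apart, of which those covered in all 8 libraries are counted. The Sox2 run averaged 0.201% to 0.606% and differed by -0.0267 ± 0.279 points with vitamin C relative to without and 0.0235 ± 0.307 with L-proline relative to without. All of its values lie near the rate on lambda DNA.

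Klf4 had 3 dense runs. The one just after the start (29 CpGs, 55545087 to 55545315) ranged from 0.133% to 0.784%, the one 716 to 1143 bases into the gene (32 CpGs) from 0.279% to 2.3%, and the one 17380 to 17644 bases from the start (14 CpGs) from 0% to 1.8%. The whole Klf4 promoter, 42 CpGs, had 0.40% and 0.461% with both supplements, 0.355% and 0.265% with vitamin C, 0.989% and 0.524% with L-proline, and 0.679% and 0.393% without either. It was lower in 4 of 4 pairs with vitamin C, with a mean matched difference of -0.276 ± 0.236 points (exact sign-flip permutation p = 0.13). The pair of L-proline libraries on day 2 differed by only -0.0628 points. All vitamin C values and that of untreated cells on day 2 lie in the range read on lambda DNA, 0.195% to 0.513%. A difference of this size therefore cannot be told from incomplete conversion. The 2 CpGs at 55546422 and 55546501, further upstream, ranged from 0% to 5.93%.

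Methylation at Klf4 was higher farther into the gene, and most of all in 1 library. In the 1 kb tile nearest the start, 37 CpGs held 0.191% to 0.753% of reads methylated. In the next tile, 534 to 1143 bases in, 35 CpGs held 0.272% to 1.94%. The tile 1540 to 2273 bases in (12 CpGs) had 3.23% and 4.24% with both supplements, 3.97% and 1.07% with vitamin C, 11.2% and 4.58% with L-proline, and 4.36% and 2.38% without either. The last 3 CpGs, 2409 to 2654 bases in, had 7.94% and 12.9% with both supplements, 9.46% and 1.18% with vitamin C, 38.3% and 9.45% with L-proline, and 11.1% and 7.58% without either. In both of these tiles L-proline on day 5 stood alone above the other 7 libraries, which overlapped.

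Esrrb showed both patterns. Its first start has a single covered CpG, 9 bases upstream, with 15 to 35 reads per library. It was methylated at 20% and 33.3% with both supplements, 3.57% and 20% with vitamin C, 51.5% and 40% with L-proline, and 42.9% and 31.4% without either. The mean matched difference was -22.2 ± 15.7 points for vitamin C (lower in 4 of 4 pairs) and 11.7 ± 3.83 for L-proline (higher in 4 of 4), each at the smallest exact permutation p of 0.13. Vitamin C on day 5 was lowest at 3.57%, and libraries with both supplements on day 2 (33.3%) overlapped untreated cells on day 2 (31.4%). With 1 CpG, the level of the surrounding promoter was not measured.

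After the second Esrrb start, 16 CpGs from 87762709 to 87762890, 115 to 296 bases downstream of it, averaged 0.885% and 0.722% with both supplements, 0.364% and 0.667% with vitamin C, 8.02% and 1.81% with L-proline, and 1.41% and 1.17% without either. L-proline on day 5 stood apart from the other 7 libraries, all of which were under 2%. In that library the CpG nearest the start, at 87762709, was read as methylated in 53.3% of 15 reads, against at most 4.17% in the other 7 libraries, and 28.6% of reads were methylated at 87762876. These were the 2 highest, and the gain was not shared along the stretch. In the same library the next CpG, at 87762718, was at 0% of 15 reads, and those from 87762721 to 87762742 were at 0% of 28 reads each. The 4 vitamin C libraries lay below the 4 without (mean matched difference -2.44 ± 3.14 points, lower in each pair; exact sign-flip permutation p = 0.13).

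Beyond that stretch, methylation climbed over less than 4 kb. From 864 to 1192 bases after the second start, the dense run of 22 CpGs averaged 1.18% and 0.869% with both supplements, 0.79% and 1.19% with vitamin C, 8.03% and 4.87% with L-proline, and 2.56% and 2.44% without either. From 1515 to 2095 bases, 9 CpGs held 4.36% and 8.89% with both supplements, 5.14% and 1.78% with vitamin C, 30.4% and 22.7% with L-proline, and 13.6% and 8.79% without either. The 2 CpGs 3582 to 3666 bases after the second start were mostly methylated in every library, at 72.9% to 99.2%. In the plot of this stretch the L-proline libraries lead on the slope between the unmethylated and the methylated ends, where both L-proline libraries without vitamin C (30.4% and 22.7%) exceeded the other 6 (at most 13.6%). The third dense run of Esrrb, at 87743811 to 87744068, between the 2 starts, averaged 0.568% to 5.29%, again highest in L-proline on day 5.

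**Figure D3:**
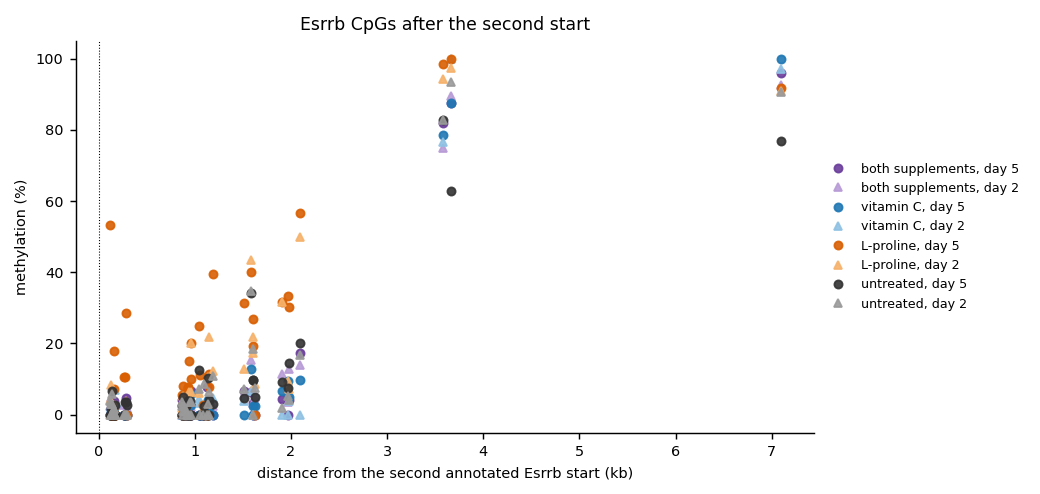
Methylation (%) of the Esrrb CpGs from 115 to 7094 bases after the second start that were covered in all 8 libraries, in each library, against that distance in kb, circles for day 5 and triangles for day 2. Nearly all values lie under 20% in the first 1.2 kb except in L-proline on day 5, which spreads up to 53.3%, and the last 3 CpGs shown, 3582 to 7094 bases from the start, lie at 62.9% or above in every library.

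Inside the Esrrb gene body, 6 groups of CpGs lay between 95 and 160 kb from the first start. The group of 4 CpGs at 95 kb (87797347 to 87797441) differed most between libraries. Its tile held 48.1% and 63.1% with both supplements, 13.9% and 51.7% with vitamin C, 90.6% and 80.2% with L-proline, and 76.9% and 68.9% without either, 58 to 206 reads per library. All 4 vitamin C libraries were below all 4 without, and vitamin C alone on day 5 was far below the rest. The mean matched difference was -34.9 ± 22.2 points for vitamin C and 17.6 ± 11.1 for L-proline.

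At 112 kb, 4 CpGs (87814542 to 87814619) held 12.9% and 3.5% with both supplements, 0.84% and 1.53% with vitamin C, 48.9% and 4.72% with L-proline, and 4.14% and 2.2% without either. L-proline on day 5 alone stood high there. At 120 kb, 4 CpGs (87821696 to 87821899) held 8.97% and 14.4% with both supplements, 3.94% and 1.19% with vitamin C, 48.5% and 12.9% with L-proline, and 19.2% and 15.3% without either. L-proline on day 5 was again far above the others, and both libraries with vitamin C alone were under 4%. The 8 CpGs at 141 kb held 3.24% and 2.03% with both supplements, 0% and 0.922% with vitamin C, 23.8% and 1.96% with L-proline, and 6.31% and 2.04% without either.

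Nearer the end of the gene, 3 CpGs (87848808 to 87848924) held 14.3% and 26.2% with both supplements, 7.41% and 7.53% with vitamin C, 61.3% and 25.3% with L-proline, and 18.5% and 8.33% without either. L-proline on day 5 was highest, libraries with both supplements on day 2 and L-proline on day 2 were close to each other, and the groups with and without vitamin C overlapped. The 3 CpGs at 159 kb, near the annotated end of the gene, were high in all libraries (62.1% to 89.8%). At 46 kb, a group of 4 CpGs was high as well (75.2% to 95.6%), and most of the variation came from 1 of its CpGs. That CpG, at 87748065, was methylated at 85.4% and 68.8% with both supplements, 37.5% and 46.9% with vitamin C, 89.5% and 77.6% with L-proline, and 80.9% and 61.7% without either, whereas each of the other 3 was at 77.3% or above in every library.

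**Figure D4:**
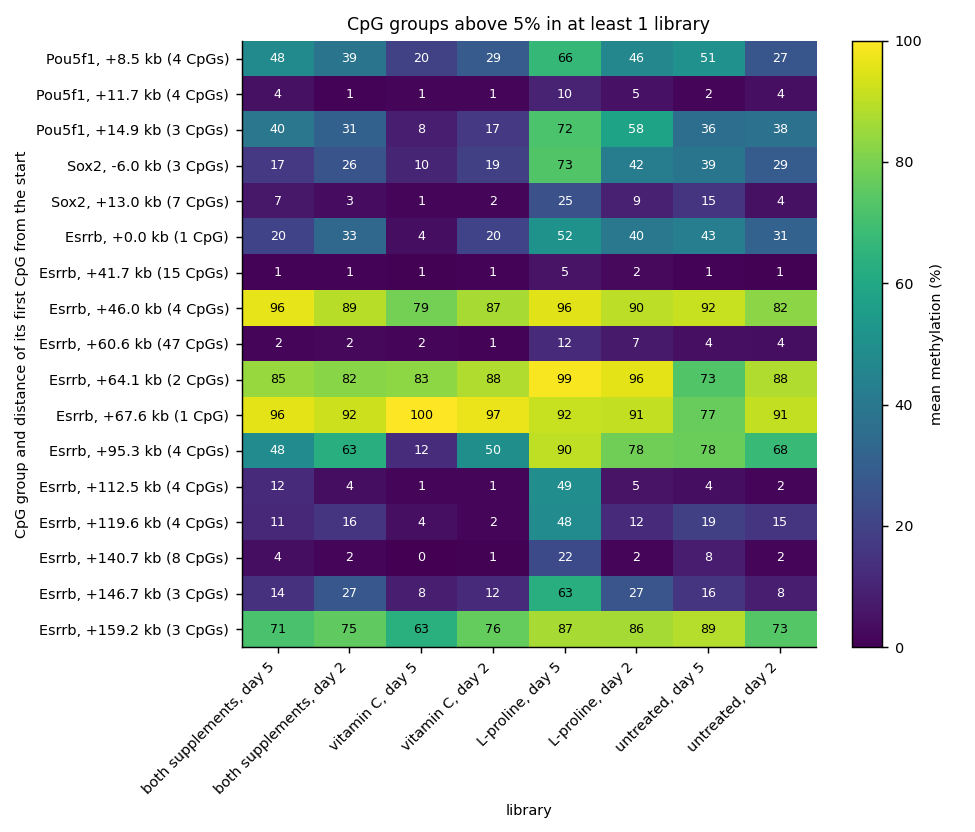
Mean methylation (%, written in each cell and coloured from 0 to 100) of every CpG group that exceeded 5% in at least 1 library, by library. Groups are CpGs with neighbours at most 500 bases apart, named by gene and the distance of the first CpG from the most upstream start. The column of L-proline on day 5 is the brightest in 14 of the 17 rows. A group can enter through that library alone, so the count is a description only. The Esrrb group from 87743811 did so, at 5.29% there and at most 2.42% in the other libraries.

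The windows also reach into neighbouring genes, and the most variable CpGs of the Pou5f1 window lay there, in 2 groups. The 4 CpGs 8.5 kb downstream (35651449 to 35651542) lie 2227 to 2320 bases inside the neighbouring gene Tcf19, which is read towards Pou5f1. They averaged 47.6% and 38.6% with both supplements, 19.6% and 28.7% with vitamin C, 66.4% and 46.4% with L-proline, and 50.6% and 26.8% without either. Untreated cells stood at 50.6% on day 5 and only 26.8% on day 2. The difference with vitamin C was -13.9 ± 14.2 points (lower in 3 of 4 pairs), and that with L-proline 18.3 ± 7.57 (higher in 4 of 4).

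The 3 CpGs 14.9 kb downstream (35657914 to 35657933) lie 3920 to 3939 bases inside Cchcr1, the gene beyond Tcf19. They averaged 39.7% and 31.1% with both supplements, 8.47% and 16.7% with vitamin C, 71.7% and 57.9% with L-proline, and 36.1% and 37.5% without either. Coverage there was thin, at 12 to 45 reads per CpG. The difference was -26.8 ± 4.61 points with vitamin C and 25.4 ± 9.71 with L-proline, each in the same direction in 4 of 4 pairs. Vitamin C alone gave the 2 lowest libraries and L-proline alone the 2 highest, with both supplements next to untreated cells. Between these groups, 10 and 6 CpGs in 2 tiles around the starts of Tcf19 and Cchcr1 were low, at 0% to 1.18% in the first tile and 0.733% to 5.84% in the second. In the second tile 4 CpGs (35654639 to 35654705) averaged 4.44% and 0.805% with both supplements, 1.37% and 1.47% with vitamin C, 9.86% and 5.06% with L-proline, and 1.78% and 4.13% without either.

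Sox2 had 2 variable groups, both in flanks. The 3 CpGs 5.8 to 6.0 kb upstream (34542966 to 34543085) averaged 16.6% and 25.9% with both supplements, 10.2% and 19.1% with vitamin C, 72.8% and 42.4% with L-proline, and 38.9% and 29.1% without either. All 4 vitamin C libraries lay below all 4 without, with a mean matched difference of -27.8 ± 20.4 points, and L-proline differed by 15.1 ± 12.9 (higher in 4 of 4 pairs). These CpGs fall on both sides of a tile border, so no tile of 3 CpGs tested them. The 7 CpGs 13.0 to 13.1 kb downstream (34561953 to 34562030) averaged 6.6% and 3.33% with both supplements, 1.27% and 1.83% with vitamin C, 25% and 9.06% with L-proline, and 15.2% and 4.35% without either. Here day 5 exceeded day 2 by 15.9 points with L-proline, 10.9 in untreated cells and 3.27 with both supplements. With vitamin C alone the difference was -0.559 points. The long non-coding gene Sox2ot overlaps the Sox2 window.

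Across libraries, reads were summed over tiles of 1 kb with at least 3 common CpGs and the log2 ratio of methylated over unmethylated reads was fitted in limma on vitamin C, L-proline and day over all 50167 tiles. Calls needed at least 10 points of difference and a Benjamini-Hochberg adjusted p below 0.05. Of the 33 tiles in the 4 windows, 5 (15.2%) were called lower with vitamin C and 0 higher. Over all tiles, 23.2% were called lower and 0% higher, so that the share at these genes was below the background, and the median difference was -1.92 points in the 33 tiles against -5.07 in all. A tile averaging under 5% cannot differ by 10 points, which leaves 12 of the 33 tiles that could be called. The 5 called tiles are among these 12, and 5 of the other 21 had a limma adjusted p under 0.05. How many of all tiles average under 5% was not counted, so the shares of 15.2% and 23.2% may not compare like tiles. At an unadjusted p under 0.05, 16 of the 33 (48.5%) were lower and 0 higher, close to the 47.7% and 0.588% of all tiles. With every library shifted to the same median log2 ratio, the sign of these counts turned, to 1 lower and 9 higher of 33, and 2.51% and 31.1% of all tiles. Lower in all 4 pairs were 13 of 33, where 49.0% of all tiles were, and in 3 of 33 the vitamin C libraries lay all below the others, where 26.2% were.

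The called tiles were 1 in the Pou5f1 window, 1 in the Sox2 window and 3 in the Esrrb window, and none in that of Klf4. The CpGs of the Pou5f1 tile lie inside the neighbouring gene Cchcr1. Those of the Sox2 tile lie in the flank, 13036 to 13082 bases after the Sox2 start. The Pou5f1 tile from 35657001 to 35658000 differed by -26.8 ± 4.61 points with vitamin C relative to without (limma adjusted p = 0.0137; n = 4 pairs, lower in 4 of 4). The Sox2 tile from 34561001 to 34562000 differed by -10.6 ± 6.82 (adjusted p = 0.0118 in limma, lower in 4 of 4). At Esrrb the tiles from 87764001 to 87765000, 87797001 to 87798000 and 87821001 to 87822000 differed by -13.8 ± 8.65, -34.9 ± 22.2 and -16.8 ± 17 points (limma adjusted p = 0.0126, 0.015 and 0.0177), lower in 4, 4 and 3 of 4 pairs. Leaving out 1 library ended 4 of the 5 calls, and not that from 87764001. The Esrrb tile from 87821001 differed by -9.68 points without L-proline on day 5, under the 10 needed, and its limma adjusted p was 0.0676 without both supplements on day 5, 0.0585 without vitamin C on day 5 and 0.0573 without untreated cells on day 5. The tile from 87797001 had adjusted p = 0.0549, 0.0503 and 0.0568 in limma without those same 3 libraries, and the Pou5f1 tile 0.0504 without vitamin C on day 5. The Sox2 tile fell under 10 points without L-proline on day 5 (-8.27), both supplements on day 5 (-9.2) or vitamin C on day 5 (-9.3).

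Another 4 tiles differed by 10 points or more and did not pass. At Pou5f1, the tile from 35651001 to 35652000 had a difference of -15.2 ± 13.5 points (limma adjusted p = 0.0991). At Esrrb the tiles from 87848001, 87861001 and 87814001 had -14.5 ± 22.3, -12.9 ± 12.2 and -10.3 ± 17.2 points (limma adjusted p = 0.0967, 0.0637 and 0.115). The largest at Klf4 was in the tile from 55542001 to 55543000, -8.76 ± 15 points (adjusted p = 0.119). The other 6 tiles with an adjusted p under 0.05 differed by less than 10 points, and 5 of them averaged under 5%. They included a Klf4 tile upstream of the start, from 55546001 (-1.88 ± 1.66 points, limma adjusted p = 0.0244), and a Sox2 tile upstream of the start, from 34541001 (-1.92 ± 1.52, adjusted p = 0.0344).

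The number of vitamin C calls rested on single libraries. It was 1 without vitamin C on day 5, 2 without both supplements on day 5, 3 without L-proline on day 5, 3 without untreated cells on day 5 and 8 without vitamin C on day 2. It was 0 with every library shifted to the same median log2 ratio, which sets differences relative to the shift of the whole library, and 2 with a quasi-binomial model.

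For L-proline, 0 of the 33 tiles were called, as were 0% of all tiles, and the smallest adjusted p in limma was 0.227 among the members and among all. Without adjustment, 12 of the 33 (36.4%) were higher at p below 0.05 and 0 were lower, where 15.2% and 0.767% of all tiles were. After the same shift to one median they were 3 higher and 6 lower, where 1.19% and 13.0% of all tiles were. Tiles higher in all 4 pairs numbered 8 of 33, where 28.0% of all tiles were. The largest differences for L-proline were 25.4 ± 9.7 points in the Pou5f1 tile from 35657001, 21.3 ± 15.3 in the Esrrb tile from 87848001, 17.6 ± 11.1 in that from 87797001, 17 ± 8.57 in the Pou5f1 tile from 35651001 and 15.3 ± 20.2 in the Esrrb tile from 87814001. At Klf4 the largest was 9.82 ± 12.9, from 55542001, and at Sox2 5.76 ± 3.43, from 34561001. For day, 0 of 33 tiles and 0% of all tiles were called (limma), and before adjustment 4 were higher and 1 lower at p below 0.05 (12.1% and 3.03%, against 6.56% and 0.973% of all tiles). Terms for vitamin C by day, vitamin C by L-proline and L-proline by day called 0 of the 33 tiles in limma, with 4, 3 and 3 (12.1%, 9.09% and 9.09%) at an unadjusted p under 0.05, where 12.3%, 3.66% and 3.35% of all tiles were. The last of these terms was added after the L-proline day 5 values were seen.

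**Figure D5:**
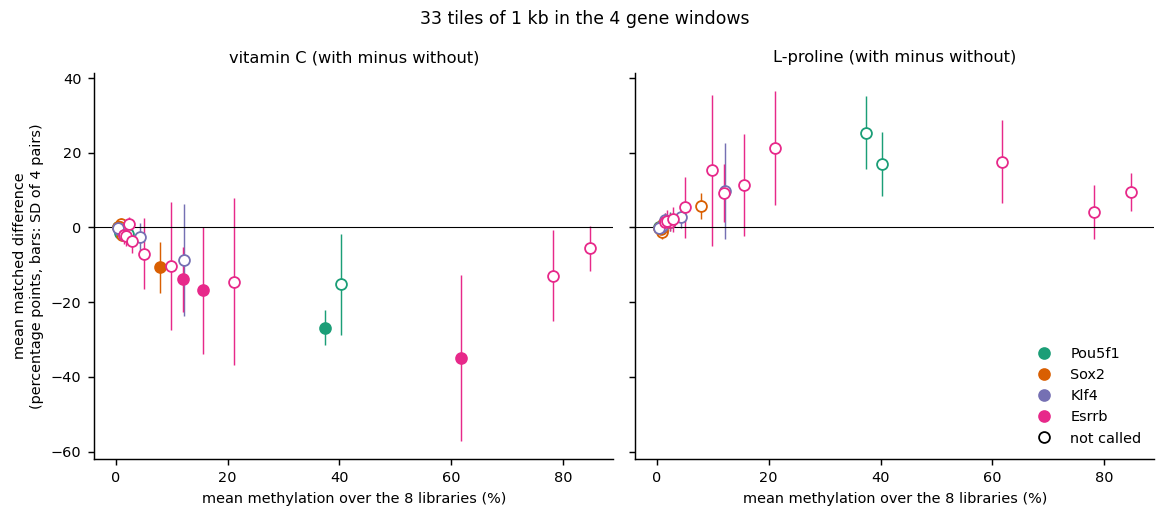
Mean matched difference in percentage points (bars: SD of 4 pairs) of each of the 33 tiles against its mean methylation over the 8 libraries (%), for vitamin C on the left and L-proline on the right, coloured by gene. Filled points were called by limma, open ones were not. The differences lie below 0 for vitamin C and above 0 for L-proline once the level exceeds about 5%, and 5 tiles are filled on the left and 0 on the right.

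For single libraries, a two-sided Fisher's exact test was run on the reads of each CpG, and calls needed a difference of at least 20 points and a Benjamini-Hochberg adjusted p below 0.05. These tests compare 2 libraries and carry no replicate error. On day 5, both supplements against L-proline alone gave 20 lower of 342 CpGs, 15 of them at Esrrb, 3 at Sox2 and 2 at Pou5f1, where 5.66% of the common set was called lower. Vitamin C against untreated cells on day 5 gave 11 lower, 8 at Esrrb and 3 at Pou5f1, against 2.95% of the common set. Those are 5.85% and 3.22% of the members, close to the background in both. On day 2 the counts were 1 for both supplements against L-proline, where 0.608% of the common set was called lower, and 0 for vitamin C against untreated cells, where 0.487% was. 

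L-proline against untreated cells on day 5 gave 11 higher, 9 at Esrrb and 1 each at Sox2 and Klf4, or 3.22% of the members where 0.715% of the common set was called. They sit in 8 groups, and neighbours within a group can share reads, so they are not 11 separate sites. L-proline on day 5 against L-proline on day 2 gave 6 higher, 5 at Esrrb and 1 at Klf4 (1.75%, against 0.883% of the common set). All of these share the L-proline day 5 library. L-proline against untreated cells on day 2 gave 0, where 0.0954% of the common set was called higher. Both supplements against vitamin C alone gave 1 higher on day 5 and 1 on day 2, both at Esrrb, where 0.0872% and 0.321% were. Untreated cells on day 5 against day 2 gave 1 higher, at Pou5f1 (0.121% of the common set). Vitamin C on day 5 against day 2 gave 0 lower and 0 higher, where 0.0742% and 0.0308% of the common set were called, and both supplements 0 and 0, where 0.0146% and 0.00755% were. Both supplements against untreated cells gave 1 lower on day 5, at Esrrb, where 0.598% of the common set was called, and 0 on day 2, where 0.0499% was.

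The smallest adjusted p for L-proline against untreated cells on day 5 was at the Esrrb CpG at 87814542 (Fisher's exact test, adjusted p = 0.000249). It was methylated at 3.45% and 5.88% with both supplements, 0% and 0% with vitamin C, 65.2% and 4.26% with L-proline, and 0% and 0% without either. It had 23 reads in that library, where the neighbouring CpGs at 87814571 and 87814587 were at 54.5% and 46.8% of 44 and 47 reads. Only L-proline on day 5 was above 20% at this CpG. At Klf4 the CpG at 55542693, 2654 bases into the gene, was methylated at 17.6% and 13.6% with both supplements, 17.1% and 2.22% with vitamin C, 57.1% and 8.96% with L-proline, and 13.8% and 4.41% without either. Again the L-proline day 5 library stood alone and the others overlapped.

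The CpGs with the largest vitamin C differences were in the groups already described. At Esrrb they were 87797347 and 87797416, at -41.8 ± 22.2 and -37.1 ± 30.7 points. The first was methylated at 33.3% and 59.6% with both supplements, 0% and 47.1% with vitamin C, 97% and 84% with L-proline, and 58.1% and 68.2% without either. At Pou5f1 they were 35657914 (-38 ± 3.41) and 35651542 (-27.6 ± 15.3), at Sox2 34543015 (-30.4 ± 22.8) and 34543085 (-27.1 ± 18.6), and at Klf4 55542741 (-11.6 ± 11.5) and 55542693 (-8.41 ± 20.9). At Klf4 the sign was shared by 3 and 2 of 4 pairs, at the other 3 genes by 4 of 4.

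For L-proline the largest differences of single CpGs were 29.9 ± 8.43 and 26.8 ± 22.6 points at Pou5f1 (35657933 and 35657923), 16.9 ± 23.8 and 15.1 ± 10.3 at Sox2 (34542966 and 34543085), 15 ± 19.5 and 12.4 ± 12.7 at Klf4 (55542693 and 55542741), and 25.2 ± 12.9 and 23.6 ± 17.1 at Esrrb (87797347 and 87748065). At Sox2 34542966 and Klf4 55542741 the sign held in 3 of 4 pairs, and at the other 6 in 4 of 4.

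The members can be set beside CpGs of like level in the common set, by the mean over the 8 libraries, as a description without a test. At under 5%, where 275 of the 342 members lie, the difference was -0.665 ± 0.508 points with vitamin C, against -0.339 ± 0.229 in the common set, and 0.367 ± 0.493 with L-proline, against 0.163 ± 0.168. At 20 to 80%, 22 members differed by -23.2 ± 13.3 points with vitamin C, against -18.5 ± 8.06 in the common set. At 5 to 20%, 38 members differed by -10.6 ± 10.8, against -10.1 ± 6.19. At 80% or above, 7 members, all at Esrrb, differed by 1.16 ± 4.67, against -7.51 ± 2.61. For L-proline the values were 17.8 ± 5.52 against 9.70 ± 1.64 at 20 to 80%, 9.0 ± 8.70 against 5.12 ± 4.52 at 5 to 20%, and 3.22 ± 5.60 against 3.17 ± 0.733 at 80% or above.

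Among the 67 member CpGs averaging 5% or above, L-proline on day 5 alone had the highest value at 50 (74.6%), where the share in the common set was 46.5%. In both sets the cut was on the mean of all 8 libraries, L-proline on day 5 included. CpGs can therefore enter through a high value in that library alone, so the count is not a test of it. Members averaging 5 to 20% were at 33.3% there and at 1.53% to 11.3% in the other libraries. Vitamin C alone on day 5 was alone lowest at 20 (29.9%), where the share in the common set was 31.3%. Neighbouring CpGs share reads, so these counts are not of independent sites.

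The 4 genes followed each other across the 8 libraries, which they share along with the shift of each whole library. Pearson's r between window means ran from 0.833 (Pou5f1 and Klf4) to 0.970 (Sox2 and Esrrb), over 8 libraries. The tiles of other windows most like the Klf4 mean were in Esrrb, from 87821001 (r = 0.979), 87848001 (0.953) and 87842001 (0.948), and those most like Sox2 in Esrrb from 87763001 (0.959), 87821001 (0.948) and 87842001 (0.934). Most like Esrrb were the Klf4 tile from 55546001 (0.961), the Sox2 tile from 34561001 (0.942) and the Pou5f1 tile from 35657001 (0.915), and most like Pou5f1 the Klf4 tile from 55546001 (0.898), the Esrrb tile from 87748001 (0.897) and the Sox2 tile from 34561001 (0.896).

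The promoters of other genes of the pluripotent states were taken from 2 lists. Of 23 genes of naive or general pluripotency, 9 could be placed on mm9 and 6 had promoter tiles; of 14 primed and early lineage genes, 9 and 7. The others were not analysed here. These promoters averaged so little methylation that a difference of 10 points could hardly arise, so calls are not counted. Each gene was averaged over its tiles, 9 naive and 10 primed in all. The median over the 6 naive and 7 primed genes was -0.12 and -1.43 points for vitamin C. Over all single tiles the median was -5.07, which is a median of tiles and not of genes. The 5 genes with the largest difference with vitamin C were Foxa2 (-4.56 ± 2.29 points), Wnt3 (-3.51 ± 1.26), T (-2.19 ± 1.75), Fgf5 (-1.43 ± 0.751) and Stat3 (-0.865 ± 1.5). For L-proline they were Foxa2 (3.19 ± 2.44), Stat3 (1.64 ± 1.94), Wnt3 (0.945 ± 0.821), T (0.789 ± 2.2) and Eomes (0.51 ± 0.635). Foxa2, a factor of endoderm, had the highest promoter level, 9.94% in L-proline on day 5 against 3.26% in untreated cells of that day. Like the starts of Pou5f1, Sox2 and Klf4, all these promoters stayed under 10%.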

How the data were processed

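DNA methylation was measured by RRBS in 8 libraries, and labels gave the treatment and day of each. Per the submitters' processing notes, CASAVA, BSMAP 2.88 and mm9 were used, without their roles or settings. The deposited values are, per CpG, the fraction of reads methylated (0 to 1) and the coverage, which the authors listed from 10 reads up. The restriction enzyme and the treatment of duplicates and incomplete conversion are not given in the sources used here, and strands were not listed apart.

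Methylated reads were taken as coverage times fraction, rounded. The common set is the CpGs listed in every library. RefSeq starts (GRCm38.p6) were placed on mm9 where listed CpGs of a gene's neighbourhood fell on CG letters at 1 shift (at least 10 CpGs, the runner-up under 0.5 times as many), since no mm9 genome was used here. Matched differences were formed between libraries sharing the other factors, tested by exact sign flips over 16 assignments. limma 3.58.1 (R 4.3.3) was fitted to log2((methylated + 1)/(unmethylated + 1)) with 3 additive factor terms and 4 residual degrees of freedom, and Fisher's exact test was run in 14 comparisons. Both were tested on simulated data. The rule for named items was all tiles and dense runs, and per gene the 3 tiles and 2 CpGs with the largest differences. The members and lists were chosen with earlier results of these data known. Intervals, limits and Fisher tests cover counting error only. Reads cover several CpGs, PCR reads are not independent molecules, and day 2 and day 5 libraries may share a culture. The permutation and limma p-values therefore measure only the spread between these libraries. Alternatives were 20 and 30 reads, all listed CpGs, pooled reads, 500-base tiles, a pseudocount of 0.5, centring, a quasi-binomial model, leaving out each library and a promoter of 500 bases each side.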

Additional observations from a re-analysis of the deposited data

Results flagged for a closer look

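Listed here are 6 cases where day 5 minus day 2 had one sign in both pairs of one group. Both pairs of the other group had the opposite sign. In 5 of these cases the groups are the libraries with and without vitamin C. The list is not complete. At low methylation, the Klf4 tiles from 55544001 and 55545001 had the same sign pattern by vitamin C. The Sox2 tile from 34547001 and the Pou5f1 tile from 35654001 had it by L-proline. How often the pattern occurs over all tiles was not counted. Over the Esrrb window, day 5 minus day 2 was -0.888 with both supplements and -2.42 with vitamin C alone, against 10 with L-proline and 2.25 in untreated cells, a gap of -7.79 points. Over the Sox2 window it was -0.108 and -0.274 against 2.14 and 0.943, a gap of -1.73 points. These gaps in window means were not tested.

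The Esrrb tile from 87797001 had day differences of -15.0 with both supplements and -37.8 with vitamin C, against 10.3 with L-proline and 8.0 in untreated cells, a gap of -35.6 points (limma vitamin C by day term, adjusted p = 0.386). In the tile from 87848001 they were -11.9 and -0.119 against 36.0 and 10.1, a gap of -29.1 points (limma adjusted p = 0.386), and in the tile from 87861001 -5.12 and -15.0 against 0.106 and 14.5, a gap of -17.4 points (limma adjusted p = 0.433). In the Pou5f1 tile from 35657001, day 5 minus day 2 was 8.57 with both supplements and 13.8 with L-proline, against -8.16 with vitamin C and -1.39 in untreated cells, a gap of 16 points (limma L-proline by day term, adjusted p = 1.00). None of the interaction terms passed. Coverage of these tiles was 36 to 206 reads per library.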

How the results depend on the processing

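All 12 window differences (3 factors at 4 genes) kept their direction at 20 and 30 reads, with every listed CpG and with pooled reads, but moved by over 1.5 times in 3, 7, 1 and 2 of the 12. At 30 reads the L-proline difference at Klf4 was 0.0664 (0.836 at 10 reads) and the vitamin C difference at Pou5f1 -2.02 (-4.11 at 10 reads). Leaving out 1 library with its pair, chosen after seeing the data, turned only the day difference at Esrrb, to -0.354 points without L-proline on day 5 or on day 2 (2.24 with all pairs; range -0.354 to 3.79). Sizes moved by over 1.5 times in 10 of 12 without L-proline on day 5, in 4 without L-proline on day 2, in 3 without both supplements or untreated cells on day 5 and in 2 without vitamin C on either day. Without L-proline on day 5, vitamin C differences were -0.992 at Sox2, -0.548 at Klf4 and -4.33 at Esrrb, and L-proline differences 0.337, 0.511 and 3.49. The 5 vitamin C tile calls in limma were 0 at 20 reads per CpG (21 tiles), 0 with libraries centred to one median and 2 with a quasi-binomial model; over the libraries left out they ranged from 1 to 8. The causes were not tested. Fisher calls, summed over comparisons, numbered 32 for vitamin C, 13 for L-proline, 7 for day and 1 for both supplements against untreated. At 20 reads they were 15, 8, 7 and 0 of 205 CpGs, and thinned to 20 reads 2, 0, 0 and 0. L-proline and day called 0 of the tiles at the 4 genes under every alternative run; over all tiles the quasi-binomial model called 18 and 7 higher. A fit with a replicate block could not be made, because the labels carry no replicate numbers. The 4 pairs used instead match libraries by treatment and day, and with 4 pairs no permutation p can fall under 0.125.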
